A study of Mus musculus with 6 samples.

Results

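The mouse mitochondrial genome is a small circle of DNA that carries 37 genes, and all 37 were found in the deposited gene table by their chromosome label, MT, among 37576 genes in all. They comprise 13 protein-coding genes, each treated here as a messenger RNA, 2 ribosomal RNA genes and 22 transfer RNA genes. The study compared 3 E861A livers (numbers 6, 16 and 19, all male) with 3 wild-type livers (numbers 2, 15 and 17, of which 2 was male and the others female). All livers came from C57BL/6 embryos at embryonic day 12.5. E861A embryos carried the mutant allele of Adar1 on each chromosome, so that the editing enzyme ADAR1 is present but cannot edit, and no other allele or treatment is named for either genotype. RNA was taken from suspensions of the whole liver, so each value is a mix of red cell precursors, hepatoblasts and other cells. Fewer cells of a type and less RNA per cell cannot be told apart in such samples. The question addressed here is whether the mitochondrial transcripts differ in livers without ADAR1 editing.

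Mitochondrial DNA is read from each strand as a long precursor RNA. The transfer RNAs lie between most of the other genes and are cut out of the precursor, which frees the messenger and ribosomal RNAs. Most of the messengers receive short poly(A) tails inside the organelle, and every messenger encodes a subunit of the respiratory chain or of ATP synthase. The mt-Nd genes encode subunits of complex I (NADH dehydrogenase), mt-Cytb encodes cytochrome b of complex III, the mt-Co genes encode the catalytic core of complex IV (cytochrome c oxidase), and mt-Atp6 and mt-Atp8 encode subunits of ATP synthase, also called complex V. The ribosomal RNAs mt-Rnr1 (12S) and mt-Rnr2 (16S) build the mitochondrial ribosome. Red cell precursors, which form much of the fetal liver, need mitochondria for haem synthesis and later remove them by mitophagy.

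The genes lie almost end to end. Of the 37, 28 are read from the plus strand of the NCBIM37 sequence (16299 bases), and mt-Nd6 and 8 transfer RNAs from the minus strand. The last bases of messengers that fell and of messengers that did not pass the test are shown here. By their annotated ends, 3 of the 13 messengers end in an incomplete stop codon, which the poly(A) tail is known to complete. Each sequence runs 5′ to 3′ in NCBIM37, and capitals mark the stop codon or what the genome holds of it. The ends of mt-Nd1 (chrM:3684-3707), mt-Nd2 (chrM:4928-4951), mt-Nd4 (chrM:11521-11544), mt-Cytb (chrM:15265-15288), mt-Co1 (chrM:6849-6872) and mt-Co3 (chrM:9367-9390), all on the plus strand, read as follows.
mt-Nd1: gcgggagtaccaccatacataTAG
mt-Nd2: ctagccccccaactaattaccTAG
mt-Nd4: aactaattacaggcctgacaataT
mt-Cytb: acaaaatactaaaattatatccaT
mt-Co1: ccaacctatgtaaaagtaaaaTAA
mt-Co3: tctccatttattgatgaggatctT
Incomplete stops were found in mt-Nd4 and mt-Cytb, which fell, and in mt-Co3, which did not pass. Some neighbours share bases, which can matter for reads assigned to genes. The last 2 bases of mt-Nd1 and of mt-Nd2, part of the TAG shown, also belong to the transfer RNA genes mt-Ti and mt-Tw on the same strand. mt-Atp8 and mt-Atp6 share 43 bases, mt-Nd5 and mt-Nd6 share 14 bases on opposite strands, and mt-Nd4l and mt-Nd4 share 7. The last junction (chrM:10157-10183, plus strand) is shown because mt-Nd4l was almost without reads while mt-Nd4 had many. Whether the shared bases bear on those counts was not tested. Capitals mark the shared bases, which hold the end of mt-Nd4l and the start codon of mt-Nd4.
mt-Nd4l to mt-Nd4: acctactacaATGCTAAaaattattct

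Mitochondrial genes took 2.52%, 3.29% and 3.43% of the reads counted in genes in E861A 6, 16 and 19, against 3.40%, 3.23% and 3.54% in wild type 2, 15 and 17. The total thus overlapped between genotypes, at 3.08 ± 0.49% in E861A and 3.39 ± 0.15% in wild type (SD, n = 3 each), and E861A 6 was the lowest library. Without E861A 6 the difference of the means, -0.31 percentage points over all libraries, became -0.03. Messenger RNAs made up 2.32% to 3.31% of reads in E861A and 3.15% to 3.46% in wild type. Ribosomal RNAs made up 0.193%, 0.198% and 0.117% in E861A 6, 16 and 19 and 0.080%, 0.079% and 0.070% in wild type 2, 15 and 17, without overlap. Sums over the genes were not tested.

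The total overlapped, but single genes differed. Of the 37 genes, 15 had enough reads to be tested: 12 messengers, both ribosomal RNAs and the transfer RNA gene mt-Tp. In E861A 6 of them fell and 1 rose, at an adjusted p under 0.05 by edgeR's quasi-likelihood test over 16511 genes. The 6 were the complex I genes mt-Nd1, mt-Nd2, mt-Nd3, mt-Nd4 and mt-Nd6 and the complex III gene mt-Cytb, and the 1 was mt-Rnr1. Over all genes tested 4.26% fell and 7.77% rose, 12.0% either way, against 46.7% of the 15 mitochondrial genes. Levels did not overlap between genotypes in 8 of the 15, of which 7 were lower and 1 higher in E861A. Over all genes 14.5% lay wholly lower, 19.4% wholly higher and 33.8% either way. The median log2 fold change was -0.68 over the 12 messengers tested and 0.04 over all genes tested. The libraries held 35280460 to 43733715 reads in genes, and as the labels do not say that livers of a genotype came from separate litters, p-values measure the spread between these libraries alone.

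**Figure D1:**
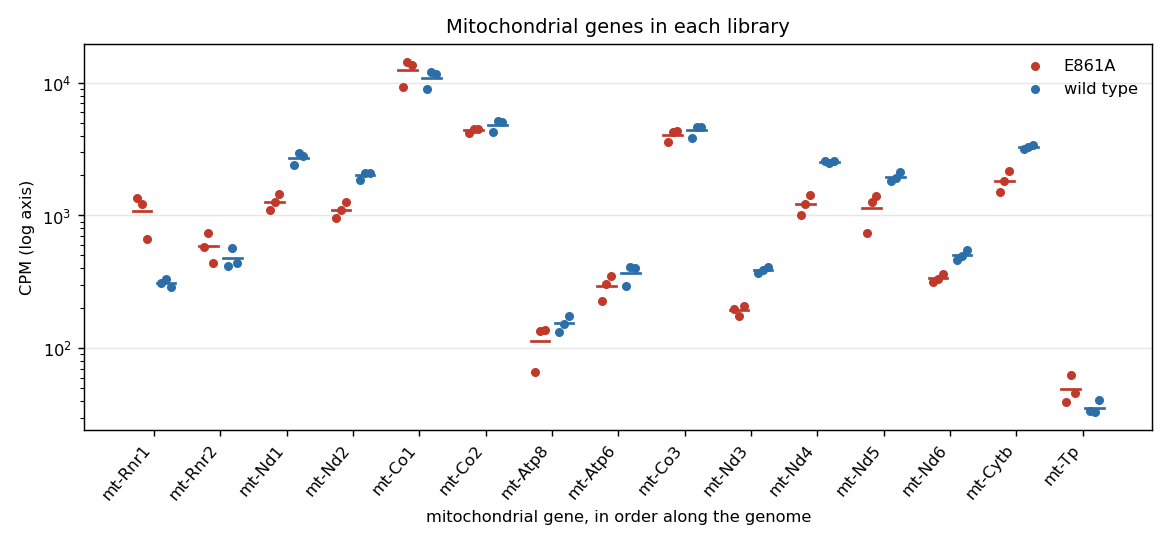
Level of each tested mitochondrial gene in each library, in counts per 1000000 (CPM, log axis), with genes in genome order, points for libraries and bars for group means. The complex I genes and mt-Cytb sit lower in all 3 E861A libraries (red) than in all 3 wild-type libraries (blue), mt-Rnr1 sits higher, and the mt-Co genes overlap.

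Of 7 complex I messengers 5 fell in E861A, mt-Nd5 did not pass and mt-Nd4l could not be tested. mt-Nd1 (ENSMUSG00000064341, chromosome M, 2751 to 3707), a core subunit of the membrane arm, stood at 1092, 1257 and 1439 CPM in E861A 6, 16 and 19 and at 2395, 2968 and 2803 CPM in wild type 2, 15 and 17. CPM are counts per 1000000, with library sizes scaled by TMM. The lowest wild-type library, the male one, was well above the highest E861A library. The log2 fold change was -1.11 (SE 0.17, edgeR adjusted p = 0.00686), so that wild type held 2.16 times the E861A level. mt-Nd3 (9459 to 9806), which encodes a small membrane subunit, stood at 196.6, 173.5 and 209.6 CPM in E861A 6, 16 and 19 and at 370.8, 391.6 and 405.6 CPM in wild type 2, 15 and 17. Its groups were tight and apart (log2 fold change -1.01, SE 0.14, edgeR adjusted p = 0.00437). mt-Nd4 (10167 to 11544), a proton-pumping subunit, was at 1000, 1218 and 1435 CPM in E861A 6, 16 and 19, against 2555, 2480 and 2574 CPM in wild type 2, 15 and 17. That is a log2 fold change of -1.06 (SE 0.18, edgeR adjusted p = 0.00854). mt-Nd2 (3914 to 4951), also a membrane subunit, averaged 1105 ± 157 CPM in E861A and 2010 ± 132 CPM in wild type (SD, n = 3 each). It fell by 0.86 on the log2 scale (SE 0.17, edgeR adjusted p = 0.0153).

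The remaining complex I genes differed less. mt-Nd6 (13552 to 14070), the messenger read from the other strand, stood at 316.1, 333.0 and 359.5 CPM in E861A 6, 16 and 19 and at 459.1, 493.8 and 552.5 CPM in wild type 2, 15 and 17. Its fall was the smallest of those that passed (log2 fold change -0.58, SE 0.15, edgeR adjusted p = 0.0424). mt-Nd5 (11742 to 13565) had 739.6, 1259 and 1396 CPM in E861A 6, 16 and 19, against 1808, 1902 and 2139 CPM in wild type 2, 15 and 17. Its groups did not overlap, yet it did not pass (log2 fold change -0.79, SE 0.24, edgeR adjusted p = 0.0786), and DESeq2 called it (adjusted p = 0.00461). mt-Nd4l (9877 to 10173) had 1 read in E861A and 2 reads in wild type over all libraries of each genotype, too few for a fold change. Cytochrome b followed complex I. mt-Cytb (14145 to 15288) stood at 1495, 1819 and 2148 CPM in E861A 6, 16 and 19 and at 3163, 3275 and 3413 CPM in wild type 2, 15 and 17, a log2 fold change of -0.85 (SE 0.18, edgeR adjusted p = 0.0205).

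The number of calls moved with single libraries and with sex, which is partly tied to genotype (both female libraries are wild type). The counts that fell were 5, 3 and 6 without E861A 6, 16 and 19, and 6, 4 and 2 without wild type 2, 15 and 17. mt-Rnr1 rose, and mt-Nd1 and mt-Nd3 fell, in each of these fits. The call for mt-Nd6 was lost without E861A 6, E861A 16, wild type 15 or wild type 17, and also with no filter on low counts. That for mt-Cytb was lost without E861A 16, wild type 15 or wild type 17. mt-Nd2 lost its call without E861A 16 or wild type 17, and mt-Nd4 without wild type 17. With sex as a covariate 1 gene (mt-Nd3) fell and none rose, and in the male libraries alone, with 1 wild-type library, edgeR called none (5 lower and 2 higher at an unadjusted p under 0.05; DESeq2, on all 6 libraries, called 7 lower and 1 higher). The log2 fold changes with sex in the fit were 1.79 for mt-Rnr1, -1.07 for mt-Nd4, -0.92 for mt-Nd1, -0.80 for mt-Cytb, -0.75 for mt-Nd2 and -0.45 for mt-Nd6. Among the male libraries they were 1.80 for mt-Rnr1, -1.06 for mt-Nd4 and -0.91 for mt-Nd1.

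Messengers of complex IV and ATP synthase gave no call. mt-Co1 (5328 to 6872), the catalytic subunit of the oxidase and the most abundant messenger, stood at 9287, 14439 and 13671 CPM in E861A 6, 16 and 19, against 8909, 12023 and 11709 CPM in wild type 2, 15 and 17. The ranges overlapped, and the log2 fold change was 0.20 (SE 0.22). mt-Co2 (7013 to 7696), which takes electrons from cytochrome c, was at 4378 ± 188 CPM in E861A and 4808 ± 455 CPM in wild type (log2 fold change -0.14, SE 0.15). mt-Co3 (8607 to 9390), the other large subunit, was at 4044 ± 391 CPM in E861A and 4378 ± 448 CPM in wild type (log2 fold change -0.11, SE 0.16). The signs for mt-Co2 and mt-Co3 turned positive once sex entered the fit, and likewise among male livers. mt-Atp6 (7927 to 8607), the proton channel subunit, was at 294 ± 63.7 CPM in E861A and 369 ± 64.8 CPM in wild type (-0.33, SE 0.21), and its sign turned in the male libraries alone. mt-Atp8 (7766 to 7969), a short companion subunit, was at 66.7, 134.4 and 137.7 CPM in E861A 6, 16 and 19 and at 133.5, 151.8 and 176.3 CPM in wild type 2, 15 and 17 (-0.45, SE 0.28). None of these 5 passed edgeR (adjusted p from 0.355 to 0.721; none at an unadjusted p under 0.05), and DESeq2 called none. In the fit of all libraries, a difference of the size seen in mt-Nd1 (-1.11) lies more than 2 SE from the value of each. Without E861A 16 (-0.67, SE 0.30) or E861A 19 (-0.63, SE 0.30) it lies within 2 SE of the value of mt-Atp8. The smaller fall of mt-Nd6 (-0.58) lies within 2 SE of the values of mt-Atp6 and mt-Atp8, so a fall of that size is not excluded for them. For mt-Atp8, falls of the size seen in mt-Nd2 (-0.86) and mt-Cytb (-0.85) are not excluded either.

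**Figure D2:**
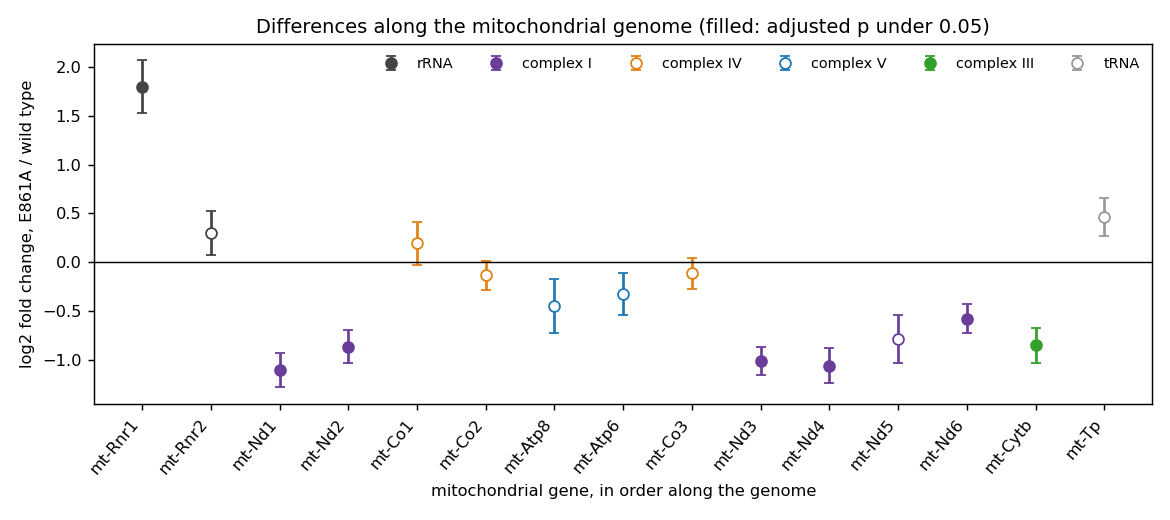
Log2 fold change of each tested mitochondrial gene, E861A over wild type, in genome order, with bars for SE, colours for RNA class or respiratory complex, and filled symbols for an adjusted p under 0.05. The mt-Nd genes and mt-Cytb lie at -0.58 to -1.11 on either side of the mt-Co and mt-Atp genes, which lie at -0.45 to 0.20.

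Measured against each other within a library, complex I messengers held a smaller share of reads in E861A and complex IV messengers a larger one. Such shares depend on each other, and no complex IV gene was called by its CPM. Complex I messengers held 18.6%, 17.3% and 19.6% of mitochondrial messenger reads in E861A 6, 16 and 19, against 31.4%, 28.7% and 29.4% in wild type 2, 15 and 17. Complex IV messengers held 73.7%, 75.3% and 72.0% in E861A 6, 16 and 19 and 56.7%, 60.6% and 59.4% in wild type 2, 15 and 17. mt-Cytb alone held 6.42 ± 0.49% in E861A and 9.71 ± 0.72% in wild type, and the mt-Atp genes 1.42 ± 0.15% in E861A and 1.53 ± 0.10% in wild type (SD, n = 3 each). These shares do not depend on how libraries are scaled, and all but the last were apart between genotypes. For each complex IV read there were 0.251 ± 0.021 complex I reads in E861A and 0.507 ± 0.042 in wild type (SD, n = 3 each), a ratio chosen after the values were seen and not tested. E861A 6, the library with the least mitochondrial RNA, was at 0.252, between 0.230 in E861A 16 and 0.272 in E861A 19.

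**Figure D3:**
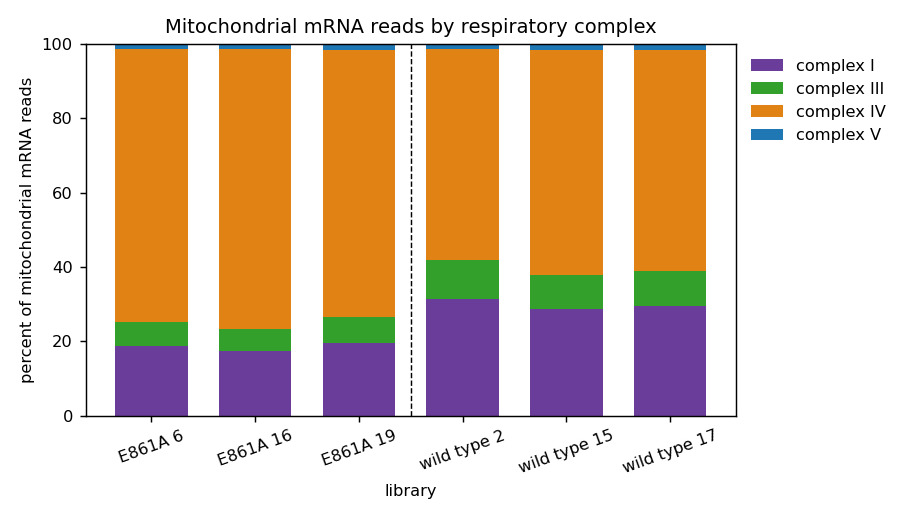
Percent of mitochondrial messenger reads that belong to complex I, III, IV and V genes in each library, E861A on the left and wild type on the right of the dashed line. Complex I takes 17.3% to 19.6% in E861A and 28.7% to 31.4% in wild type, and complex IV fills most of the rest.

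The ribosomal RNAs did not move as a pair. mt-Rnr1 (ENSMUSG00000064337, chromosome M, 70 to 1024), the RNA of the small ribosomal subunit, stood at 1348, 1230 and 661 CPM in E861A 6, 16 and 19 and at 311.6, 330.5 and 288.0 CPM in wild type 2, 15 and 17. All E861A libraries were above all wild-type libraries, with E861A 19 the nearest to them. The log2 fold change was 1.80 (SE 0.27, edgeR adjusted p = 0.00523), a 3.48-fold higher mean in E861A. mt-Rnr2 (1094 to 2675), the RNA of the large subunit and the next ribosomal gene on the same precursor, stood at 575.8, 742.0 and 439.6 CPM in E861A 6, 16 and 19 and at 415.0, 572.1 and 438.9 CPM in wild type 2, 15 and 17. Its ranges overlapped and it did not pass (log2 fold change 0.30, SE 0.23, edgeR adjusted p = 0.457). For each mt-Rnr2 read there were 2.34, 1.66 and 1.504 mt-Rnr1 reads in E861A 6, 16 and 19, against 0.751, 0.578 and 0.656 in wild type 2, 15 and 17, a ratio chosen after the values were seen and not tested.

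Other RNAs that mostly lack long poly(A) tails were measured beside the ribosomal RNAs. Genes annotated as small nucleolar RNA took 136.7 to 198.7 reads per 1000000 in E861A and 167.4 to 180.8 in wild type. Nuclear ribosomal RNA genes took 2.80 to 4.78 reads per 1000000 in E861A and 2.73 to 4.72 in wild type, and replication-dependent histone genes took 220.0 to 251.7 in E861A and 153.7 to 251.7 in wild type. All 3 classes overlapped between genotypes. Their part in the mt-Rnr1 difference was not tested.

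Transfer RNAs were mostly absent from the counts. Of 22 genes, 15 had no read in any library, where a count of 0 allows up to 3 reads per library, and 6 had 2 to 51 reads over all libraries. The genes are 59 to 75 bases long. mt-Tp, the gene of the proline transfer RNA (15356 to 15422, minus strand), was the exception, with 39.2, 62.4 and 45.8 CPM in E861A 6, 16 and 19 against 33.6, 32.9 and 40.4 CPM in wild type 2, 15 and 17. Its ranges overlapped and it did not pass (log2 fold change 0.46, SE 0.19, edgeR adjusted p = 0.168). The asparagine gene mt-Tn had 8, 16 and 15 reads in E861A 6, 16 and 19 and 2, 5 and 5 in wild type 2, 15 and 17. The cysteine gene mt-Tc had 5, 10 and 5 reads in E861A 6, 16 and 19 and 2, 3 and 3 in wild type 2, 15 and 17, and the serine gene mt-Ts1 had 6 reads in E861A and 8 in wild type in all. mt-Tn and mt-Tc lay higher in each E861A library, at counts too low for the test. The labels do not say whether reads were counted by strand, so reads at mt-Tp, mt-Nd6 and the other minus-strand genes may include RNA of the opposite strand.

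Divided by gene length, counted reads in wild-type livers were highest for mt-Co1 (7042 ± 1110 RPKM, CPM divided by gene length in kilobases, SD, n = 3), mt-Co2 (7029 ± 665) and mt-Co3 (5585 ± 571). They were followed in wild type by mt-Cytb (2870 ± 109), mt-Nd1 (2844 ± 308), mt-Nd2 (1937 ± 127) and mt-Nd4 (1841 ± 36.3), and then by mt-Nd3, mt-Nd5, mt-Nd6, mt-Atp8 and mt-Atp6, from 1119 down to 542. Among the tested messengers and ribosomal RNAs, the ribosomal RNAs were last in wild type, at 325 ± 22.3 for mt-Rnr1 and 300 ± 53.5 for mt-Rnr2. These are ranks of counted reads, and whether ribosomal RNAs were captured as fully as messengers was not tested. In that order the wild-type ranges of mt-Co1 and mt-Co2, mt-Cytb and mt-Nd1, mt-Nd2 and mt-Nd4, mt-Nd3 and mt-Nd5, mt-Nd5 and mt-Nd6, and the ribosomal RNAs overlapped. In E861A mt-Rnr1 (1130 ± 385 RPKM) stood among mt-Nd1 (1320 ± 181) and mt-Nd2 (1065 ± 152), with overlapping ranges. Levels per length take the whole gene as countable, which the nuclear copies described next may not allow.

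The nuclear genome holds copies of mitochondrial DNA, and a read that matches both cannot be assigned to either by its sequence alone. In NCBIM37, 7200 of the 16299 mitochondrial bases lie in stretches of at least 50 bases that occur unchanged in another chromosome or contig. All 50-base windows of mt-Co2, mt-Co3, mt-Atp6, mt-Atp8 and mt-Nd4l had such a match, as did 99.0% in mt-Nd3, 62.2% in mt-Nd4 and 51.1% in mt-Co1. The share was 8.29% in mt-Nd2, 7.61% in mt-Nd5 and 6.13% in mt-Rnr2, and no window of mt-Rnr1, mt-Nd1, mt-Nd6, mt-Cytb or mt-Tp had a match. mt-Rnr1, which rose, and mt-Nd1, mt-Nd6 and mt-Cytb, which fell, thus share no 50-base stretch with the nuclear genome. The genes with no call included the 4 tested ones with a match at all windows, and whether reads that match both bear on the missing calls was not tested. Reads were counted in these genes all the same, 1112224 in mt-Co2 and 1019692 in mt-Co3 over all libraries. Both genes matched at all 100-base windows as well, and how such reads were placed is not given. mt-Nd3 and mt-Nd4, with matches at most windows, fell by 1.01 and 1.06 on the log2 scale, beside 1.11 for mt-Nd1. Of 7 counted nuclear genes that overlap such stretches, Gm10925 on chromosome 1 had the most reads. It had 3056, 4495 and 6660 in E861A 6, 16 and 19 and 5149, 6314 and 6377 in wild type 2, 15 and 17, which overlap between genotypes. These are few beside the mt-Co genes but close to the reads of mt-Atp8. That gene had 2823, 4762 and 6294 reads in E861A 6, 16 and 19 and 5808, 5824 and 6659 in wild type 2, 15 and 17.

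**Figure D4:**
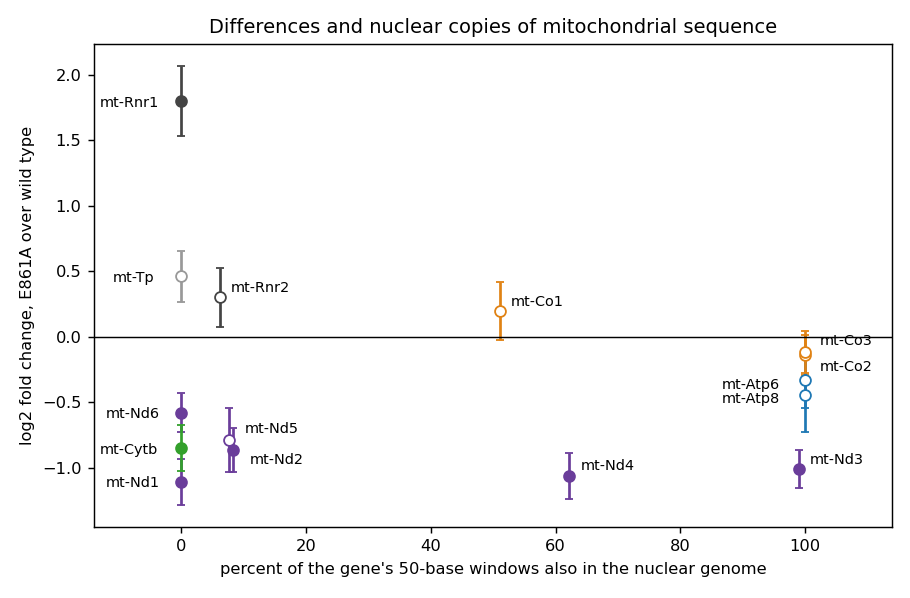
Log2 fold change of each tested mitochondrial gene, E861A over wild type with SE, against the percent of its 50-base windows that also occur in the nuclear genome, with filled symbols for an adjusted p under 0.05. Genes that fell are found at 0, at 8.29%, at 62.2% and at 99.0%, and the mt-Co and mt-Atp genes lie between 51.1% and 100.

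Some markers of cell types, and some genes that can respond to handling, moved with genotype. Their part in the mitochondrial differences was not tested. Over all genes tested 4.26% fell and 7.77% rose. These lists were not refitted with sex as a covariate. Each labelled liver carried hepatoblast markers such as Alb and Afp and red cell markers such as Gata1 and Klf1. Of 17 erythroid genes tested 6 fell and none rose by edgeR, and their summed level was 20491 to 22899 CPM in E861A and 25074 to 60737 CPM in wild type. The lowest wild-type sum was that of wild type 2, the male library. Of 15 hepatoblast genes 7 rose and none fell, at 20899 to 30503 CPM summed in E861A and 16811 to 21163 CPM in wild type. Of 12 genes that can respond to tissue dissociation 7 rose and none fell, at 738 to 1446 CPM summed in E861A and 231 to 466 CPM in wild type. For these genes handling and genotype cannot be told apart here. Endothelial genes (3 of 11 rose, 1 fell) summed to 586 to 838 CPM in E861A and 549 to 686 CPM in wild type, macrophage genes (2 of 11 rose, 1 fell) to 321 to 409 CPM in E861A and 290 to 335 CPM in wild type, and mesenchymal genes (0 of 11) to 742 to 1799 CPM in E861A and 567 to 1994 CPM in wild type. No matched marker of these lists was at 0 in all libraries.

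Few nuclear genes for the respiratory chain passed the test. Of 80 tested nuclear subunit genes 2 rose and 1 fell, 3.75%, below the 12.0% of all genes, and their median log2 fold change was -0.06. Uqcrh, a hinge subunit of complex III, fell to 102 ± 12.4 CPM in E861A, against 168 ± 7.82 CPM in wild type (log2 fold change -0.72, SE 0.14, edgeR adjusted p = 0.0178). That call was lost with sex in the fit (-0.64, edgeR adjusted p = 0.122) and without E861A 16 (0.0748), wild type 15 (0.0618) or wild type 17 (0.110). The 2 that rose were tissue-restricted isoforms of complex IV at low level. Cox4i2 had 9.09 ± 3.32 CPM in E861A and 0.976 ± 0.463 CPM in wild type (log2 fold change 3.22, SE 0.46, edgeR adjusted p = 0.00421), and Cox6a2, the isoform of heart and skeletal muscle, had 3.66 ± 1.07 CPM in E861A and 0.213 ± 0.099 CPM in wild type (4.09, SE 0.46, edgeR adjusted p = 0.00137; SD, n = 3 each). With sex in the fit Cox4i2 was no longer called (3.07, edgeR adjusted p = 0.0854). For each nuclear subunit read there were 1.85, 2.91 and 3.29 mitochondrial messenger reads in E861A 6, 16 and 19, against 2.88, 2.68 and 2.77 in wild type 2, 15 and 17. The ratio overlapped between genotypes. Its mean was lower in E861A by 0.09 on the log2 scale, and leaving out E861A 6 turned that difference to 0.16. As a mean of log2 CPM over genes, which weights each gene alike, mitochondrial messengers exceeded nuclear subunits by 2.16, 2.64 and 2.94 in E861A 6, 16 and 19, against 3.24, 3.15 and 3.16 in wild type 2, 15 and 17. On that scale the genotypes did not overlap and differed by -0.60, which was not tested.

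Few genes that act on mitochondrial DNA and RNA passed, and Pnpt1 moved furthest among those that did. Over all genes tested 7.77% rose and 4.26% fell, so the calls in these short lists are read for single genes alone. Of 6 tested genes of mitochondrial RNA stability and decay Pnpt1 rose and none fell. It encodes polynucleotide phosphorylase, which degrades mitochondrial RNA and is known to be induced by interferon. Pnpt1 stood at 337.7, 271.2 and 230.2 CPM in E861A 6, 16 and 19, against 82.1, 104.8 and 94.9 CPM in wild type 2, 15 and 17, a log2 fold change of 1.57 (SE 0.19, edgeR adjusted p = 0.00188). All E861A libraries were above all wild-type libraries, and whether Pnpt1 bears on the mitochondrial levels was not tested. With sex in the fit its log2 fold change was 1.77 (edgeR adjusted p = 0.0190), and among the male libraries alone it was 1.78. Lrpprc, which stabilises mitochondrial messengers and was named after its value was seen, had 155 ± 13.6 CPM in E861A and 201 ± 34.6 CPM in wild type and did not pass (-0.38, SE 0.17, edgeR adjusted p = 0.199).

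None of the 8 genes of mitochondrial transcription passed edgeR or DESeq2, nor any at an unadjusted p under 0.05. The lowest p were those of the polymerase Polrmt (-0.36, SE 0.20), the transcription factor Tfb2m (-0.22, SE 0.16) and the methyltransferase Tfb1m (-0.24, SE 0.20). Tfam, which packages mitochondrial DNA and was named after its value was seen, stood at 82.7 ± 16.8 CPM in E861A and 80.1 ± 3.60 CPM in wild type. None of 20 genes of RNA processing and modification passed either tool, and 2 were lower at an unadjusted p under 0.05 by edgeR. They were Mto1 (-0.44, SE 0.17), which acts on transfer RNA, and Elac2 (-0.40, SE 0.17), which cuts transfer RNAs out of the precursor, with Fastkd1 (-0.27, SE 0.16) next. Of 10 translation factors none passed edgeR, 3 were lower at an unadjusted p under 0.05 and DESeq2 called 1, and the leading ones were Gfm1 (-0.55, SE 0.19), Taco1 (-0.56, SE 0.23) and Gfm2 (-0.37, SE 0.16). Of 75 genes of mitochondrial ribosomal proteins Mrpl30 rose (1.20, SE 0.16), Mrpl34 (-0.89, SE 0.17) and Mrps21 (-0.61, SE 0.14) fell, and the median was 0.02. Thus 1.33% of the list rose and 2.67% fell, below the 7.77% and 4.26% of all genes. With sex in the fit the edgeR calls for Mrpl34 (-0.52, adjusted p = 0.142) and Mrps21 (-0.43, adjusted p = 0.216) were lost, as they were without E861A 16, wild type 15 or wild type 17, and for Mrps21 also without E861A 19.

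The next lists are short as well, and their few calls, beside 7.77% rising and 4.26% falling over all genes, are read for single genes alone. Of 12 genes that maintain mitochondrial DNA, Dna2, a nuclease and helicase that also acts in the nucleus, fell (-0.94, SE 0.17, edgeR adjusted p = 0.0131). The call was lost without wild type 17 (-0.87, edgeR adjusted p = 0.0778), and with sex in the fit the value was -0.57 (0.103). Of 7 nuclear regulators Nrf1, a transcription factor for respiratory genes, fell (-0.59, SE 0.16, edgeR adjusted p = 0.0495), a call lost when any single library except wild type 2 was left out, and also once sex entered the fit (-0.30). Of 11 mitophagy genes edgeR called 2 higher and 0 lower (2 lower at an unadjusted p under 0.05), and DESeq2 called 2 higher and 2 lower. Bnip3, a receptor for mitophagy, had 171 ± 38.9 CPM in E861A and 72.2 ± 11.5 CPM in wild type (1.24, SE 0.20, edgeR adjusted p = 0.00804), and the autophagy receptor Sqstm1 had 308 ± 58.5 CPM in E861A and 145 ± 33.3 CPM in wild type (1.09, SE 0.22, edgeR adjusted p = 0.0181). Bnip3l, the receptor by which red cell precursors shed mitochondria, was named after its value was seen and stood at 200 ± 19.3 CPM in E861A and 300 ± 68.1 CPM in wild type (-0.59, SE 0.19, edgeR adjusted p = 0.0932). DESeq2 called Bnip3l lower (adjusted p = 0.0165), as did edgeR with library totals (0.0377), with a filter of 1 CPM in 3 libraries (0.0461) and without wild type 2 (0.0276), while its log2 fold change was -0.25 once sex entered the fit. The call for Bnip3 was lost with sex in the fit (1.21, edgeR adjusted p = 0.10), and that for Sqstm1 without E861A 16 (0.0733) and without wild type 17 (0.0953).

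**Figure D5:**
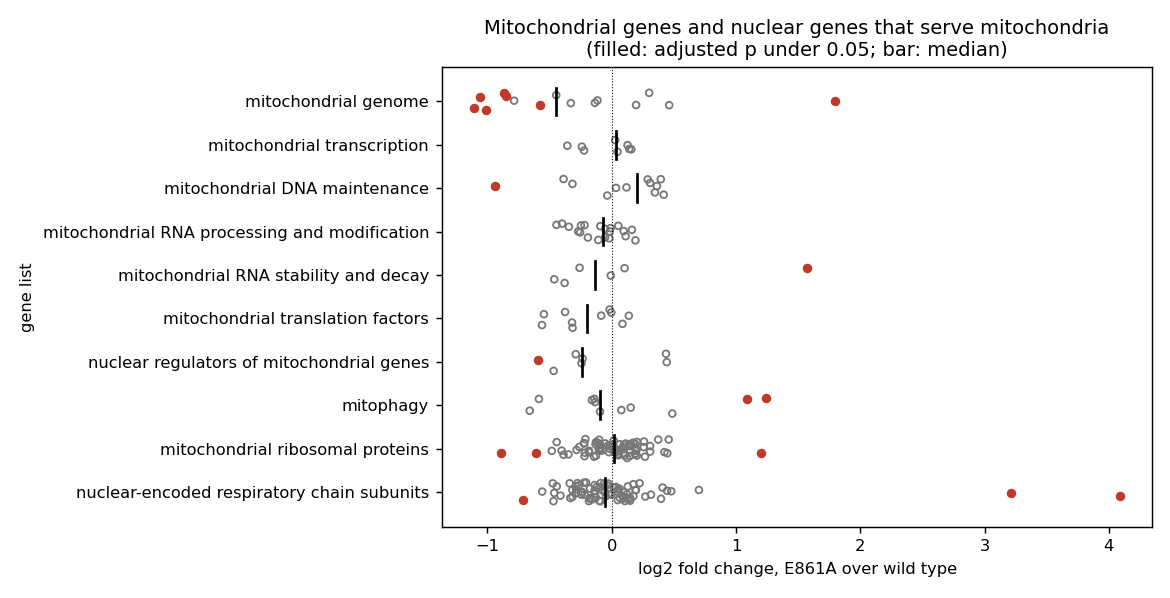
Log2 fold change, E861A over wild type, of the 15 tested mitochondrial genes (top) and of the tested genes in 9 lists of nuclear genes that serve mitochondria, with filled points for an adjusted p under 0.05 and bars for medians. The mitochondrial genes hold 7 filled points of 15, against 3 of 80 for the nuclear respiratory chain subunits, and Pnpt1 stands apart at 1.57 in the list of RNA stability and decay.

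In the authors' deposited table, whose fold changes are given there as wild type against mutant and are turned here, the same 15 mitochondrial genes were listed, and at the adjusted p of 0.05 used here 6 were lower and 1 higher in E861A. Of its 14484 genes, the authors' deposited table has 4.84% lower, 8.44% higher and 13.3% either way. The authors' deposited table gives -1.10 for mt-Nd1, -0.82 for mt-Nd5 (adjusted p = 0.0681), 0.20 for mt-Co1 and 1.75 for mt-Rnr1. The table of RNA editing sites analysed here lists 6012 sites, none of them on the mitochondrial genome, so editing of these transcripts was not compared.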

How the data were processed

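Raw read counts per Ensembl gene were used as deposited by the authors, whole numbers for 6 libraries. The submitters' processing notes name HTSeq, edgeR, limma, TopHat2 (2.0.8), BWA, Bowtie2 (2.1.0.0), Cufflinks, Trimmomatic (0.30) and SAMtools (0.1.19), and the builds NCBIM37 and mm9, without saying which step used which. How reads with several matches were counted, read length and strandedness are not given in the sources used here. The authors' deposited log2 fold changes and p-values were read beside them, and of the deposited table of site coverage counts and editing levels (a fraction of reads, per the file headers) only the positions were used. The deposited table of normalised counts was not used.

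Counts were fitted with edgeR 4.0.16 in R 4.3.3 (filterByExpr, TMM, robust quasi-likelihood F test), genotype alone, with Benjamini-Hochberg adjustment over all 16511 tested genes, and DESeq2 1.42.0 was an alternative. Each SE was obtained by dividing the absolute log2 fold change by the root of its F statistic. Replicates differed by far more than counting error (between 37.3 and 116.0 chi-square units per degree of freedom). Gene ends and strands came from GENCODE M1, whose starts equalled the deposited ones for all 37 genes. Windows shared with the nuclear genome were found with blastn 2.17.0 as exact matches. All 37 genes, the gene lists and the tests were chosen with earlier results of these data known. Text names all messengers and ribosomal RNAs, the 4 transfer RNAs with the most reads, and per list the called genes if 1 to 3, otherwise the 3 with the smallest p. In the lists of nuclear genes that serve mitochondria, Tefm, Mgme1 and Slirp had no match by symbol. Of 19 erythroid markers listed, 17 were matched.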

Additional observations from a re-analysis of the deposited data

How the results depend on the processing

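No paired analysis was possible because no replicate number occurs in both genotypes. Over all genes, adding sex to the fit gave 530 higher and 39 lower, male livers alone gave 301 higher and 8 lower, 1160 fell with a filter of 1 CPM in 3 libraries and 1538 fell with DESeq2, against 1283 and 703 in the fit reported. With single libraries left out 515 to 1737 rose and 95 to 1502 fell. Of the mitochondrial genes 1 fell and 0 rose with sex as a covariate, 0 fell and 0 rose in the male libraries alone, and 2 to 6 fell and 1 rose with single libraries left out (2 without wild type 17, 3 without E861A 16). The 6 tested mt-Nd genes and mt-Cytb kept a negative sign, and mt-Rnr1 a positive one, in all 14 alternatives. With the other library scalings edgeR gave the same 6 and 1 calls. Signs turned with sex as a covariate for mt-Co2 (0.031), mt-Co3 (0.066) and Polrmt (0.0094), in the male libraries alone for mt-Co2 (0.041), mt-Co3 (0.076), mt-Atp6 (0.0072) and Polrmt (0.019), and without E861A 6 for Tfam (-0.13, and at most 0.12 with another library left out). As a mean of log2 CPM over genes, which weights each messenger alike, mitochondrial against nuclear subunits differed by -0.60 in place of -0.09. Leaving single libraries out moved the share of mitochondrial reads to between -0.48 and -0.03 percentage points and the log2 ratio to nuclear subunits to between -0.26 and 0.16. The causes were not tested. The coverage alternative for editing sites gave no value, as no site lay on the mitochondrial genome.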
